A study of Homo sapiens with 6 samples.

Results

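Transcripts of the nuclear-encoded respiratory chain genes were described here in long-read RNA editing data from methanol-fixed HEK293T cells, an established human line of embryonic kidney origin. The genes were taken by name from GENCODE release 44: protein-coding genes whose symbols begin with NDUF, UQCR, ATP5, COX4, COX5, COX6, COX7 or COX8, together with SDHA, SDHB, SDHC, SDHD and CYC1. Of 9831 annotated isoforms with at least 1 edit in any library, 92 isoforms of 75 genes fell under these names. The rule by name uses no measured value, but an isoform had to carry an edit to be counted. Earlier results of these data were known when the genes were chosen.

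The study compared 3 treatments of methanol-fixed cells, with 2 libraries each. In RBFOX2-INSCRIBE, a rabbit antibody against the splicing regulator RBFOX2 was followed by Apo1-Nb, a purified fusion of the cytosine deaminase APOBEC1 to a nanobody that binds rabbit antibodies, so that cytosines near RBFOX2 were converted to uracils at 37 °C. The enzyme-only control was given Apo1-Nb but no antibody (below, "enzyme alone"), and the buffer-only control neither ("buffer alone"). All cells were of 1 unmodified line (labelled HEK293XT in one field and HEK293T in the titles) and replicates were wells of that line, so p-values measure only the spread between these libraries, which may be technical. The enzyme-only libraries carry the replicate numbers 2 and 3 of their titles. The files hold edited fractions and no expression, so the cell type was not checked against marker genes.

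The respiratory chain of the inner mitochondrial membrane passes electrons from NADH and succinate to oxygen through complexes I to IV, and the ATP synthase uses the proton gradient they build to make ATP. Most subunits are encoded in the nucleus, translated in the cytosol and imported, and their mRNAs are abundant and mostly short. RBFOX2 is known for binding UGCAUG in introns and 3′UTRs.

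An edited site here is a position and strand with any edited read, counted once per library. For a whole isoform, editsC divides its listed edits, of either strand, by its exonic Cs, as a percentage. These edits are called its edited Cs below, although those on the opposite strand are not at Cs of the isoform. Such opposite-strand edits made up 9 and 4 respiratory chain sites in RBFOX2-INSCRIBE, 21 and 10 with enzyme alone, and 7 and 7 with buffer alone. For parts of an isoform, editsC takes edits at Cs of its own strand only. The fractions come without read numbers, so the depth behind each site is unknown. In these bulk libraries, more editing, more RNA of an isoform and more reads of it cannot be told apart. On annotated isoforms the libraries held 207675 and 212661 distinct sites in RBFOX2-INSCRIBE, 90602 and 160201 with enzyme alone, and 79210 and 77757 with buffer alone. Enzyme-only replicate 2 stood apart, with the fewest sites of the 4 libraries that received the enzyme and with 21.9% of its edited positions in isoforms under 2000 nt, against 8.49% to 13.5% in the other libraries.

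Respiratory chain transcripts carried about as many edited sites with the RBFOX2 antibody as without it, and about 2.2 times as many with the enzyme as with buffer alone. They held 976 and 636 distinct sites in the RBFOX2-INSCRIBE libraries, 759 and 764 with enzyme alone, and 362 and 343 with buffer alone. The enzyme-only values lay between the 2 RBFOX2-INSCRIBE values, and both buffer-only values lay below all others. The ratio of RBFOX2-INSCRIBE (806 ± 240.4, SD, n = 2) to enzyme-only (761.5 ± 3.54, SD, n = 2) was 1.06 (two-sided exact permutation test, p = 1). Over all isoforms the same ratio was 1.68. The ratio of enzyme-only to buffer-only (352.5 ± 13.4, SD, n = 2) was 2.16 for the respiratory chain and 1.6 over all isoforms, and that of RBFOX2-INSCRIBE to buffer-only was 2.29 and 2.68. Both buffer-only comparisons of the respiratory chain gave an exact p = 0.333, the smallest that 2 against 2 libraries allow.

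The ratio of 1.06 depended on which sites and which libraries were counted. Without RBFOX2-INSCRIBE replicate 1 it was 0.835. With sites of an edit fraction of at least 0.02 only, the counts were 172 and 124 in RBFOX2-INSCRIBE, 68 and 105 with enzyme alone, and 58 and 40 with buffer alone. Both RBFOX2-INSCRIBE libraries then lay above both enzyme-only libraries, with a ratio of 1.71 (exact p = 0.333), against 1.56 over all isoforms. The RBFOX2-INSCRIBE counts include runs of Cs with equal fractions, described below, among them 13 Cs of ATP5PB and 9 of COX4I1 in replicate 1. The members had no such run in a control library, and the ratio without the runs was not computed. As a percentage of all sites of a library, respiratory chain sites made up 0.470 and 0.299 in RBFOX2-INSCRIBE, 0.838 and 0.477 with enzyme alone, and 0.457 and 0.441 with buffer alone.

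The sites were concentrated in few genes. ATP5F1B, the catalytic beta subunit of the ATP synthase, held 13.4% of the gene-level sites summed over the 6 libraries, and 8 genes (ATP5F1B, ATP5F1A, NDUFA5, ATP5PB, SDHA, UQCRC1, ATP5MC3 and SDHD) held 52.8%. An edit in all 6 libraries was seen in 35 of the 75 genes, and an edit in 1 library in 9 genes. Enzyme-only replicate 2 had edits in the most genes of the chain (66), and RBFOX2-INSCRIBE replicate 2 in the fewest (48).

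Each of the 5 complexes had more edited sites in every library that received the enzyme than in either buffer-only library, and in none of them did both RBFOX2-INSCRIBE libraries lie above both enzyme-only libraries. The ATP synthase subunits had 400 and 249 sites in RBFOX2-INSCRIBE, 298 and 357 with enzyme alone, and 139 and 143 with buffer alone. The complex I assembly factors, with 46 and 25 sites against 19 and 27, had the highest ratio of RBFOX2-INSCRIBE to enzyme-only, 1.54, and complex IV, with 34 and 20 against 35 and 25, had the lowest, 0.900. The other ratios were 1.21 for complex II, 1.15 for complex I core subunits, 1.08 for complex I accessory subunits, 1.01 for complex III and 0.991 for the ATP synthase, with overlapping libraries in each.

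**Figure D1:**
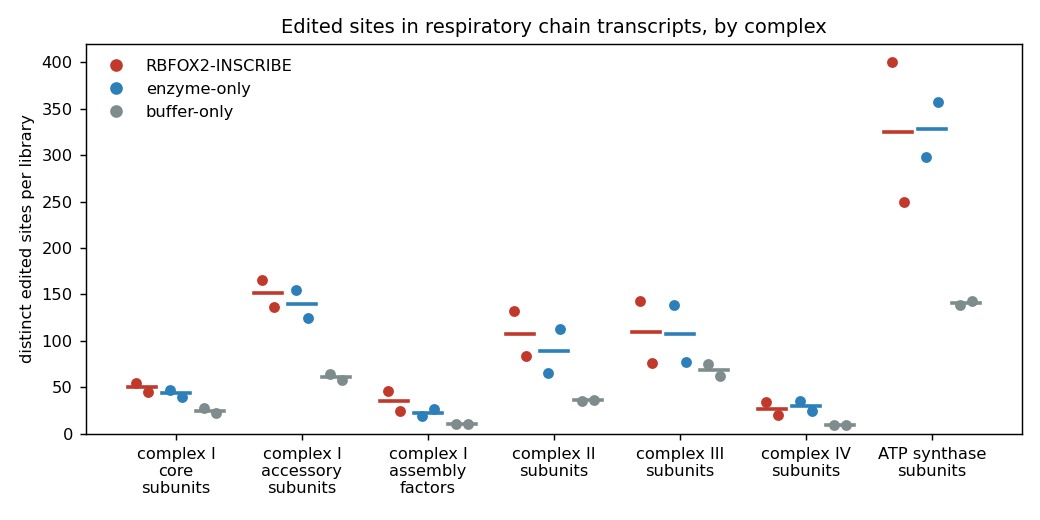
Distinct edited sites per library (y axis) in the transcripts of each complex or role group (x axis); points are libraries and bars are group means of 2 libraries. RBFOX2-INSCRIBE (red) and enzyme-only (blue) points overlap in each group, and the grey buffer-only points lie lowest, at 139 and 143 for the ATP synthase subunits.

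In complex I, all 7 nuclear core subunits, 22 of 30 listed accessory subunits and 5 of 8 assembly factors had an edit. NDUFS1, the iron-sulfur subunit that carries electrons from the NADH-oxidising module, had 25 and 29 sites in RBFOX2-INSCRIBE, 11 and 20 with enzyme alone, and 6 and 7 with buffer alone, with no overlap between the groups. NDUFV1, which binds NADH and FMN, had 10 and 4, 15 and 11, and 14 and 6 sites in the same order, so that both RBFOX2-INSCRIBE libraries were below both enzyme-only libraries and within the buffer-only range or below it. NDUFV2, its iron-sulfur partner, had 2 and 6, 15 and 5, and 0 and 6 sites, with overlap throughout.

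Among accessory subunits, NDUFA5 (chr7:123536997-123557818, hg38, minus strand, for its main isoform ENST00000355749) was the most edited. Over its 2 isoforms it had 54 and 57 sites in RBFOX2-INSCRIBE, 29 and 46 with enzyme alone, and 15 and 19 with buffer alone, with the 3 groups apart. NDUFA9, at the junction of the peripheral and membrane arms, had 30 and 22, 12 and 26, and 6 and 10 sites, and NDUFC2 had 17 and 17, 15 and 12, and 6 and 6. The RBFOX2-INSCRIBE and enzyme-only values overlapped for NDUFA9 and not for NDUFC2. Among assembly factors, NDUFAF4 (chr6:96889315-96897891, minus strand) had 35 and 23, 10 and 24, and 7 and 9 sites. The other assembly factors were near the floor: NDUFAF3 had 0 to 6 sites in a library and NDUFAF1 had 0 to 5.

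All 4 subunits of complex II, which oxidises succinate and links the citric acid cycle to the chain, were edited. SDHA, the flavoprotein with the succinate site (chr5:218320-257082, plus strand), had 44 and 43 sites in RBFOX2-INSCRIBE, 12 and 50 with enzyme alone, and 22 and 21 with buffer alone. The value of enzyme-only replicate 2 was the only one below buffer-only. SDHD, a membrane anchor (chr11:112086873-112095794, plus strand), had 54 and 25, 27 and 26, and 9 and 5 sites, and SDHC, the other anchor, had 28 and 13, 16 and 33, and 3 and 10. For both anchors every enzyme library was above both buffer-only libraries. SDHB, the iron-sulfur subunit, had 6 and 3, 11 and 4, and 1 and 1 sites.

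In complex III, UQCRC1, a core protein of the matrix side, had nearly the same number of sites with and without enzyme: 42 and 26 in RBFOX2-INSCRIBE, 40 and 25 with enzyme alone, and 32 and 25 with buffer alone. CYC1, cytochrome c1, was similar, with 21 and 11, 37 and 12, and 20 and 19 sites. The second core protein, UQCRC2, differed from these in having all enzyme libraries above buffer-only, with 22 and 14, 18 and 10, and 7 and 6. UQCRB, a small subunit whose annotated isoform here is 8459 nt long, had 31 and 14 sites in RBFOX2-INSCRIBE, 7 and 10 with enzyme alone, and 3 and 2 with buffer alone, with the groups apart. Complex IV was the least covered: 10 of 19 listed genes had an edit, and no isoform of it passed the minimum for the buffer-only comparisons. Its most edited genes, COX4I1, COX6A1 and COX5A, had 16 and 3, 7 and 4, and 6 and 1 sites in RBFOX2-INSCRIBE, and 9 and 3, 5 and 10, and 12 and 2 with enzyme alone. In COX4I1, 12 of the edited Cs in RBFOX2-INSCRIBE replicate 1 belonged to a retained-intron isoform (ENST00000568339) that had 0 in replicate 2 and 0 and 2 with enzyme alone.

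Of the listed ATP synthase genes, 18 of 19 had an edit. ATP5F1B (chr12:56638175-56645984, minus strand) had 118 and 78 sites in RBFOX2-INSCRIBE, 91 and 123 with enzyme alone, and 56 and 49 with buffer alone, or an editsC of 27.8% and 18.4%, 21.5% and 29.0%, and 13.2% and 11.6%. Its editsC was above that of every other respiratory chain isoform in each of the 6 libraries, buffer-only included. ATP5F1A, the alpha subunit of the catalytic head, had 104 and 63, 53 and 102, and 38 and 44 sites. ATP5PB, of the peripheral stalk, had 64 and 28, 47 and 36, and 12 and 16 sites. ATP5MC3, one of the genes for the c-ring subunit, had 49 and 37 sites in RBFOX2-INSCRIBE and 22 and 27 with enzyme alone, with no overlap, and 9 and 15 with buffer alone.

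Genes were also counted by whether the groups overlapped. Of 32 member genes with a mean of at least 5 sites over the RBFOX2-INSCRIBE and enzyme-only libraries, 6 (ATP5MC3, NDUFA10, NDUFA5, NDUFC2, NDUFS1 and UQCRB) had both RBFOX2-INSCRIBE libraries above both enzyme-only libraries, or 18.8%, against 51.2% of all genes. NDUFB6 and NDUFV1 had them below, or 6.25%, against 3.72% of all genes. Against buffer-only, 19 of 27 member genes were higher in both RBFOX2-INSCRIBE libraries (78.7% of all genes were) and 18 of 28 were higher in both enzyme-only libraries (42% of all genes were). Both libraries lay below both buffer-only libraries in 0 member genes, against 1.09% of all genes for RBFOX2-INSCRIBE and 1.63% for enzyme alone.

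To test single isoforms, log2 of the edited Cs plus 0.5, divided by the Cs in the exons, was compared with limma over every isoform whose edited Cs averaged 5 or more across the libraries of a comparison, with Benjamini-Hochberg adjustment over all of them. Against buffer-only, 17 of 26 respiratory chain isoforms were higher in RBFOX2-INSCRIBE at an adjusted p under 0.05 and 0 were lower, a share that stands beside 56.7 percent called higher of all 5521 isoforms tested. Of the 26 log2 differences 24 were above 0, against 94.1 percent of all isoforms. Their median was 1.51 and that of all isoforms 1.49. The calls comprised 7 of 9 tested isoforms of the ATP synthase, all 3 of complex II, 3 of 5 complex I accessory subunits, 1 of 3 core subunits, the assembly factor NDUFAF4 and 2 of 5 of complex III. By size, the largest were UQCRB (log2 difference 2.85 ± 0.713, SE, limma adjusted p = 0.0122), SDHD (2.37 ± 0.416, adjusted p = 0.00304) and ATP5MG, a membrane subunit of the ATP synthase (2.22 ± 0.489, adjusted p = 0.00746). ATP5IF1, the inhibitor of the ATP synthase, ATP5MC3, ATP5F1C (the gamma subunit of the rotor), NDUFAF4, NDUFA5 and NDUFA9 followed, with log2 differences from 1.66 to 2.16. UQCRC1 (0.22), UQCRFS1, the Rieske protein (0.35), NDUFB5 (0.37), CYC1 (-0.07) and NDUFV1 (-0.65) were among the 9 that did not pass the test. NDUFS1 (1.72 ± 0.636, SE, limma adjusted p = 0.050005) and NDUFA10 (1.45 ± 0.626, limma adjusted p = 0.0806) did not pass it either, with differences as large as those of called isoforms. Without either RBFOX2-INSCRIBE library, 0 member isoforms and 0 of all isoforms passed the test, and without buffer-only replicate 2 the count was 9. After scaling every library to the same total, the median of all isoforms moved to 0.13, that of the members to 0.14, and 0 members were called, so the calls are relative to unscaled numbers of edited Cs.

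Without the antibody, 2 of 28 tested isoforms were higher with enzyme alone than with buffer alone at a limma adjusted p under 0.05. Of all 4627 isoforms tested, 0.692 percent were called higher and 0.735 percent in either direction. The 2 member isoforms were those of ATP5MG, with 12 and 16 edited Cs with enzyme alone and 2 and 1 with buffer alone (log2 difference 2.89 ± 0.662, SE, limma adjusted p = 0.00537), and NDUFB6, a membrane-arm accessory subunit, with 16 and 9 against 2 and 1 (2.69 ± 0.694, adjusted p = 0.0221). The enzyme-only libraries of both lay above both buffer-only libraries. Of the 28 log2 differences 27 were above 0, against 83.2 percent of all isoforms, with a median of 1.04 for members and 0.64 for all isoforms. Without enzyme-only replicate 2 these medians were 1.34 and 1.10, and without enzyme-only replicate 3 they were 1.16 and 0.25. Leaving out any 1 of the 4 libraries, or scaling to the same total, left 0 member isoforms called.

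For RBFOX2-INSCRIBE against enzyme-only, 0 of 32 tested isoforms passed an adjusted p of 0.05 in limma and 1 had an unadjusted p under 0.05, while over all 5851 isoforms 0.0513 percent were called and 15.3 percent had an unadjusted p under 0.05. The log2 difference was above 0 in 15 of the 32 isoforms, against 85.2 percent of all isoforms, and its median was -0.08, against 0.85 for all isoforms. Without enzyme-only replicate 2 the median was 0.10 for members and 0.35 for all isoforms, and without enzyme-only replicate 3 it was -0.09 and 1.30. The isoform with the unadjusted p under 0.05 was NDUFB8, an accessory subunit of the membrane arm, with 3 and 0 edited Cs in RBFOX2-INSCRIBE and 15 and 3 with enzyme alone (log2 difference -2.48 ± 0.954, SE, limma adjusted p = 0.293). Without RBFOX2-INSCRIBE replicate 2, which had 0, the difference was -1.07, and without enzyme-only replicate 2 NDUFB8 was not tested. With edits on the isoform's strand and in its exons only, NDUFB8 was not tested either. Under that setting 0 of 30 tested member isoforms had an unadjusted p under 0.05. The next in size were UQCRB (1.27 ± 0.935, limma adjusted p = 0.440) and NDUFV2 (-1.2 ± 0.707, limma adjusted p = 0.367). With edits on the isoform's strand and in its exons only, these differences were 1.27 and -0.71. Without enzyme-only replicate 3, SDHA was called higher (log2 difference 1.75 ± 0.352, SE, limma adjusted p = 0.0299) and ATP5PO, a stalk subunit, was called lower (-1.83 ± 0.483, limma adjusted p = 0.0499), while 1938 of 5886 isoforms were called in all.

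**Figure D2:**
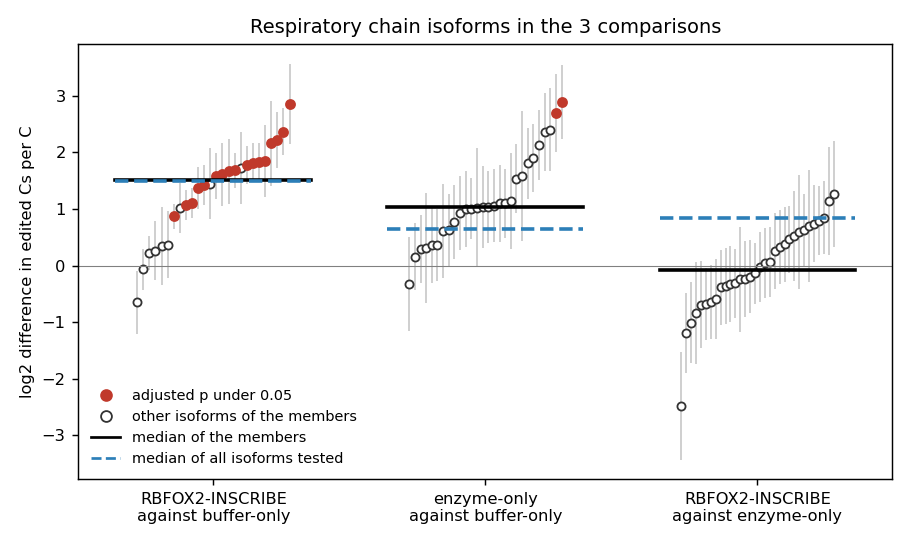
Log2 difference in edited Cs per C of each tested respiratory chain isoform (points, sorted; grey bars are the SE from limma) in the 3 comparisons; red points passed an adjusted p of 0.05. The median of the members (black line) lies at that of all isoforms (dashed blue line) against buffer-only in RBFOX2-INSCRIBE, above it with enzyme alone, and below it, at -0.08 against 0.85, between the 2 enzyme treatments.

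The related lists gave intermediate or lower values in the same comparison. Assembly and biogenesis factors of the chain outside these names had 23 of 31 tested isoforms above 0 with a median log2 difference of 0.44, and the citric acid cycle 11 of 14 with a median of 0.65. Mitochondrial ribosomal proteins had 19 of 33 with a median of 0.39, and cytosolic ribosomal proteins 10 of 39 with a median of -0.58. None of these lists had an isoform called between RBFOX2-INSCRIBE and enzyme-only.

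Isoform length moved with this comparison. Member isoforms had a median length of 1058 nt, and 66 of 92 were under 2000 nt, while the other isoforms had a median of 3260 nt. Under 1000 nt, the ratio of edited positions in RBFOX2-INSCRIBE to enzyme-only was 0.547 for members and 0.528 for other isoforms, and without enzyme-only replicate 2 it was 0.974 and 0.929. It was 0.907 and 1.15 from 1000 to 2000 nt, 1.5 and 1.65 from 2000 to 3000 nt, 0.938 and 1.85 from 3000 to 5000 nt, and 1.47 and 1.85 above 5000 nt, where the last 2 bands held 6 and 7 member isoforms. Members lay below the other isoforms in each band but the shortest. From 2000 to 3000 nt both sets were at 1.27 against enzyme-only replicate 3 alone, and at 1.82 and 2.34 against replicate 2 alone. In isoforms of at least 2000 nt, members had 508 and 355 sites in RBFOX2-INSCRIBE, 252 and 359 with enzyme alone, and 138 and 162 with buffer alone, a ratio of 1.41 against 1.78 for all isoforms of that length. In isoforms under 2000 nt they had 478 and 284, 510 and 411, and 224 and 183, a ratio of 0.827 against 1.08. The part of length in the low ratio of the respiratory chain was not tested.

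**Figure D3:**
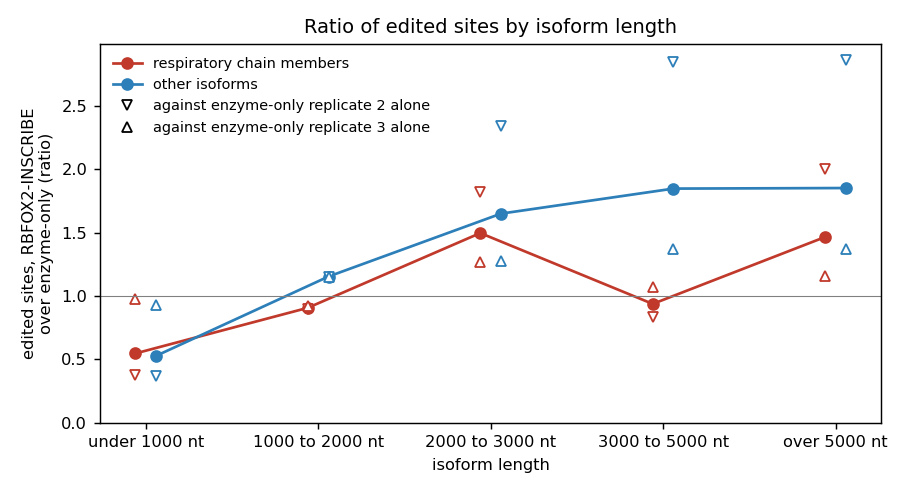
Ratio of edited positions in RBFOX2-INSCRIBE to enzyme-only (y axis; 1 is equality) by isoform length (x axis) for respiratory chain members (red) and other isoforms (blue); filled points use both enzyme-only libraries and open triangles 1 of them. Both sets start near 0.5 under 1000 nt, and against enzyme-only replicate 3 alone members gave 0.974 and other isoforms 0.929 there; against replicate 2 alone the other isoforms over 5000 nt gave 2.86.

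Editing of respiratory chain transcripts, with Cs pooled over isoforms, differed by part of the isoform. The pooled values also hold differences between isoforms in editing and depth, and parts were not compared within isoforms. In coding sequence, members had an editsC of 4.04% and 2.65% in RBFOX2-INSCRIBE, 3.68% and 3.64% with enzyme alone, and 1.83% and 1.75% with buffer alone. In 3′UTRs it was 1.95% and 1.35%, 1.05% and 1.23%, and 0.452% and 0.426%. In 3′UTRs the 3 groups did not overlap, while in coding sequence RBFOX2-INSCRIBE and enzyme-only did. The ratio of RBFOX2-INSCRIBE to enzyme-only was 0.915 in coding sequence and 1.45 in 3′UTRs, against 1.44 and 1.96 in the other isoforms. Members were edited more densely in coding sequence than in 3′UTRs in all 6 libraries, whereas in other isoforms the 3′UTR was denser in the 4 libraries with enzyme (1.18% to 3.46%, against 1.02% to 1.96% in coding sequence). In member isoforms under 2000 nt the range was 1.70% to 4.18% in coding sequence and 0.595% to 3.55% in 3′UTRs. In longer ones it was 1.63% to 4.77% and 0.311% to 1.49%. At both lengths the coding value was the higher in each library, with RBFOX2-INSCRIBE replicate 1 at 3.59% and 3.55% under 2000 nt. The median 3′UTR was 225 nt in members and 1388 nt in the others. Within isoforms under 2000 nt, the ratio in members was 0.789 in coding sequence and 1.05 in 3′UTRs, and within longer isoforms 1.13 and 1.83, so the 3′UTR ratio was the higher in both.

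**Figure D4:**
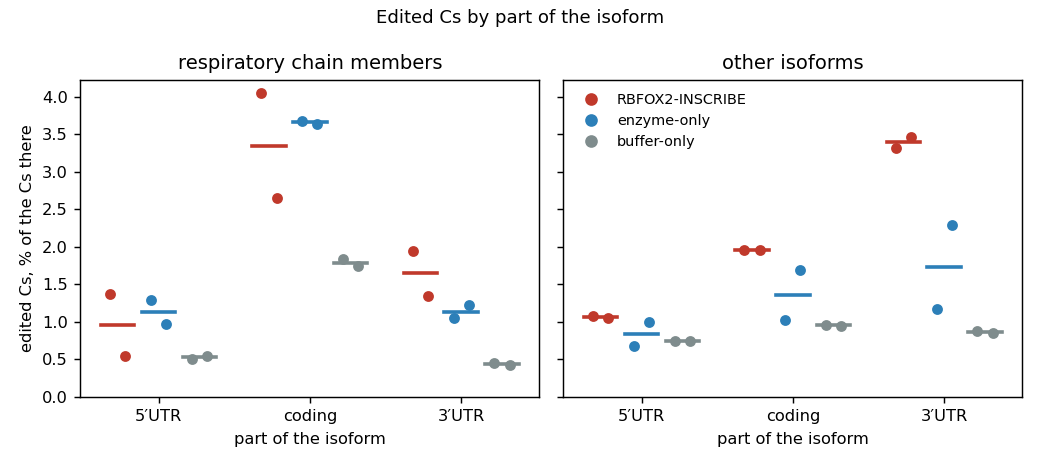
Edited Cs as a percentage of the Cs in the 5′UTR, coding sequence and 3′UTR (x axis) of respiratory chain members (left) and of other protein-coding isoforms (right); points are libraries, bars group means. With Cs pooled over isoforms, the coding sequence of members was the most densely edited part, at 1.75% to 4.04%. In other isoforms with enzyme the 3′UTR was, at up to 3.46%.

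The base before the edited C separated enzyme from buffer in these transcripts. APOBEC1 is known to prefer a C after A or U. An A preceded 33.0% and 35.3% of member sites in RBFOX2-INSCRIBE, 29.5% and 36.7% with enzyme alone, and 15.8% and 18.3% with buffer alone, where 21.2% of all exonic Cs of these isoforms follow an A. A G preceded 42.5% and 40.8% of the buffer-only sites and 20.6% to 29.3% of the sites with enzyme. After A or U alone, members had 610 and 425 sites in RBFOX2-INSCRIBE, 402 and 512 with enzyme alone, and 127 and 140 with buffer alone, a ratio of enzyme-only to buffer-only of 3.42 and of RBFOX2-INSCRIBE to enzyme-only of 1.13. Over all isoforms the latter was 1.89 at such sites.

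Edit fractions in respiratory chain transcripts were low in every library. The median was 0.493% and 0.639% in RBFOX2-INSCRIBE, 0.421% and 0.435% with enzyme alone, and 0.462% and 0.448% with buffer alone. Both RBFOX2-INSCRIBE medians were the highest, and the share of positions at or above 2% was 17.4% and 19.4% there, 8.92% and 13.6% with enzyme alone, and 16% and 11.6% with buffer alone. RBFOX2-INSCRIBE had 25 and 24 positions at or above 10%, enzyme alone 8 and 8, and buffer alone 5 and 3. Of the 25 in replicate 1, 13 were neighbouring Cs of ATP5PB with the same fraction. In the other isoforms the numbers were 3982 and 3589, 2546 and 2794, and 1406 and 1502, and the highest median fraction was that of enzyme-only replicate 2, 0.763%.

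Few sites recurred. Of 2955 distinct member sites, 2271 were listed in 1 library, and 0 in all 6, since the authors had removed edits found in all samples. The RBFOX2-INSCRIBE libraries shared 146 sites (23.0% of the smaller set and 15.0% of the larger), the enzyme-only libraries 101 (13.3% and 13.2%), and the buffer-only libraries 27 (7.87% and 7.46%). Over all isoforms the shares were 24.6% and 24%, 13.1% and 7.39%, and 9.40% and 9.23%. Of the 146, 69 (47.3%) were in no control library and 68 (46.6%) were also in an enzyme-only library, against 51.6% and 40.7% over all isoforms.

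The 6 positions listed in both RBFOX2-INSCRIBE libraries with the highest mean fraction lay in NDUFS1, NDUFAF4 (3 positions), NDUFA9 and UQCRC2. They are shown because their fractions were the highest of the recurrent sites with the antibody. Without read numbers, a high fraction may rest on few reads. Each line gives the transcribed strand 5′ to 3′ on hg38, with 12 bases on either side and the edited C in capitals.
NDUFS1 3′UTR, chr2:206123638-206123662, minus strand: tacatgcattatCttcttttgttct
NDUFAF4 coding, chr6:96891103-96891127, minus strand: aagaaagcaataCgatcaaaatgaa
NDUFA9 3′UTR, chr12:4687269-4687293, plus strand: gaaatgtagtcaCttagaacttgag
UQCRC2 3′UTR, chr16:21983597-21983621, plus strand: cccctgttttgcCttttttgcaata
NDUFAF4 3′UTR, chr6:96890945-96890969, minus strand: tgagctccctgaCttttcaagattg
NDUFAF4 3′UTR, chr6:96889582-96889606, minus strand: ttgtaagcatgaCtttgaatgtaga

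The NDUFS1 site was edited at 40% and 50% in the RBFOX2-INSCRIBE libraries and listed in no control. In RBFOX2-INSCRIBE replicate 2 the nearby Cs at chr2:206123647 and chr2:206123669 were also at 50%, and the reads behind these values are unknown. The NDUFA9 site, at 7.81% and 6.25%, and the NDUFAF4 site at chr6:96890957, at 4.96% and 0.926%, were likewise absent from the control lists. The coding site of NDUFAF4 was edited at 3.50% and 11.3%, and at 2.97% in enzyme-only replicate 2, and the site at chr6:96889594 at 3.39% and 1.80%, and at 1.92% in that library. The UQCRC2 site was edited at 5.08% and 2.22%, and at 2.00% in enzyme-only replicate 3 and in buffer-only replicate 1. A site that is not listed had no edit in the file, which without read numbers does not bound its level.

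Several edits of 1 library stood in runs with the same fraction. In ATP5PB, 13 Cs of the 3′UTR between chr1:111461625 and chr1:111461841 were each edited at 16.7% in RBFOX2-INSCRIBE replicate 1. Runs of at least 5 Cs with an equal fraction of at least 2% within 300 nt were also seen in COX4I1 (9 Cs at 4%), NDUFB2, NDUFS1 and UQCRB (5 Cs each), each in 1 RBFOX2-INSCRIBE library. No such run was found in the members in a control library.

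Within 50 nt of UGCAUG, the RBFOX2 motif, the edited share of member Cs in RBFOX2-INSCRIBE was close to that of the other Cs of all members. Over all isoforms it was higher near the motif, and the value for the members changed with the window and the minimum fraction. The other Cs include those of isoforms without the motif, so the ratio also holds differences between isoforms in editing and depth. A comparison within isoforms that hold the motif was not made. Exons of 30 of the 92 member isoforms (32.6%) held UGCAUG on the transcribed strand, against 55.6% of all isoforms, at 37 positions in 24 genes. Among member Cs within 50 nt of it, 22 and 18 of 814 were edited in RBFOX2-INSCRIBE, 17 and 9 with enzyme alone, and 11 and 9 with buffer alone. The edited share near the motif divided by that of the other member Cs was 0.879 and 1.10 in RBFOX2-INSCRIBE, 0.887 and 0.454 with enzyme alone, and 1.2 and 1.04 with buffer alone. The enzyme-only values lay partly within the RBFOX2-INSCRIBE range, and the buffer-only values overlapped it (RBFOX2-INSCRIBE minus enzyme-only 0.320, two-sided exact permutation test, p = 0.667). Over all isoforms the ratio was 1.83 ± 0.0116 (SD, n = 2) in RBFOX2-INSCRIBE, 1.04 ± 0.0413 with enzyme alone and 0.985 ± 0.0337 with buffer alone. Within 25 nt of the motif the member ratios were 1.34 and 1.81 in RBFOX2-INSCRIBE, 0.817 and 0.497 with enzyme alone, and 1.94 and 1.36 with buffer alone. Within 100 nt they were 0.859 and 0.950, 0.726 and 0.604, and 0.982 and 0.742. Among sites of a fraction of at least 0.02 within 50 nt they were 1.94 and 3.83, 1.88 and 0.767, and 3.07 and 2.21, from 2 to 11 edited Cs a library. In each of these 3 settings the RBFOX2-INSCRIBE values were all higher than those with enzyme alone (exact p = 0.333, the smallest possible) and overlapped those with buffer alone.

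**Figure D5:**
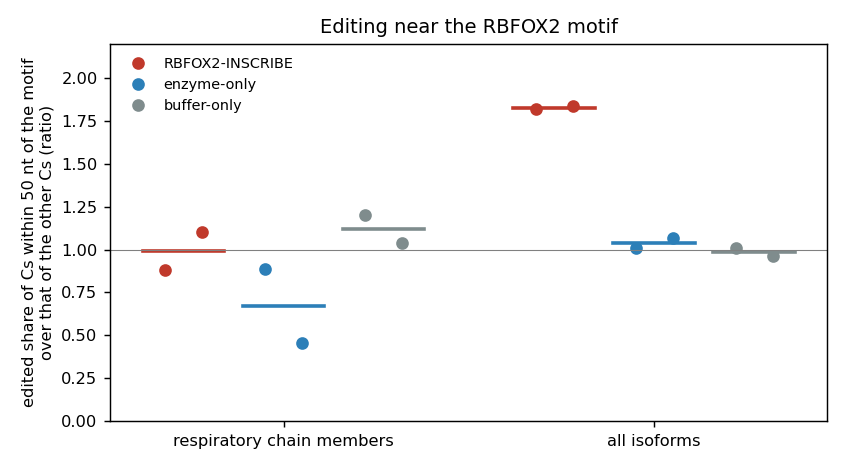
Edited share of Cs within 50 nt of the RBFOX2 motif divided by that of the other Cs (y axis; 1 is equality), for respiratory chain members and for all isoforms; points are libraries, bars group means. The other Cs include those of isoforms without the motif. The red RBFOX2-INSCRIBE points stand at 1.82 and 1.84 over all isoforms and at 0.879 and 1.10 in the members. In the members their range overlaps that of each control.

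In 5 genes, NDUFAF4, NDUFV2, SDHA, UQCRB and UQCRC2, a C within 50 nt of UGCAUG was edited in both RBFOX2-INSCRIBE libraries. The motifs (in capitals, as T in DNA letters) are shown with 11 bases on either side. The edited Cs, which lay within 50 nt, are not marked.
NDUFAF4 3′UTR, chr6:96890876-96890903, minus strand: tatttcataagTGCATGtcagcatgact
SDHA 3′UTR, chr5:256466-256493, plus strand: ataatagctcaTGCATGtgtccatgtca
UQCRC2 coding, chr16:21965412-21965439, plus strand: cattgaaaattTGCATGcagcagcttac
NDUFV2 coding, chr18:9122619-9122646, plus strand: ctactacacccTGCATGcttcgaaactc

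Near the NDUFAF4 motif, 2 and 2 of 12 Cs were edited in RBFOX2-INSCRIBE, 0 and 4 with enzyme alone, and 0 and 0 with buffer alone. Near the SDHA motif the numbers were 2 and 4 of 18, 1 and 2, and 0 and 1. Near those of UQCRC2 and NDUFV2 they were 2 and 1, 2 and 0, and 1 and 0, and 1 and 2, 2 and 1, and 0 and 2. In each of these the RBFOX2-INSCRIBE and enzyme-only libraries overlapped. The UQCRB 3′UTR held 5 such motifs, and the 2 that were edited in both RBFOX2-INSCRIBE libraries had 1 and 1, and 3 and 2 edited Cs there, with 0 in both enzyme-only libraries and 1 in a buffer-only library each.

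ATP5F1A was the gene with 2 tested isoforms against buffer-only. The 1945-nt isoform ENST00000282050 had 34 and 28 edited Cs in RBFOX2-INSCRIBE, 23 and 43 with enzyme alone, and 16 and 13 with buffer alone, and the 5761-nt isoform ENST00000398752 had 80 and 38, 33 and 65, and 22 and 33. The shorter one passed the test against buffer-only (log2 difference 1.07 ± 0.272, SE, limma adjusted p = 0.0128) and the longer one did not (1.02 ± 0.448, adjusted p = 0.0846). Their editsC was 8.02% and 6.60%, and 6.14% and 2.92%, in RBFOX2-INSCRIBE. The isoforms share exons, the difference between them was not tested, and reads were assigned to one or the other by the authors.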

How the data were processed

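Long-read libraries of 6 wells of fixed HEK293T cells were analysed, 2 for each of 3 treatments. The authors made circular consensus reads, aligned full-length reads to hg38 with pbmm2, kept primary alignments on the correct strand, assigned reads uniquely to isoforms with IsoQuant, called C-to-U changes with their own scripts, and removed edits found in all samples and those in dbSNP. They deposited, per isoform and position, the edited fraction of the reads, from 0 to 1, with no read numbers, so low fractions and unlisted sites depend on depth. The annotation release they used is not given in the sources used here. Release 44 of GENCODE named at least 99.7% of the listed pairs, and 100% of the sense exonic edits lay on a C of its transcripts.

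EditsC, motifs and regions were computed in Python (3.11.15, numpy 2.4.6, pandas 2.3.3, scipy 1.17.1, matplotlib 3.10.9) and isoforms compared with limma 3.58.1 in R 4.3.3 (trend and robust settings), in the 2 groups compared, with exact permutation tests over libraries for single values. The limma script was tested on simulated data. Edits of both strands were counted, except for regions, motifs and preceding bases.

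The genes, lists and tests were chosen with earlier results of these data known. Named were, in each role group, the 3 genes with the most sites, SDHA to SDHD and CYC1, the called isoforms with the largest differences (up to 10 a comparison), genes with 2 tested isoforms, genes with edited Cs near UGCAUG in both RBFOX2-INSCRIBE libraries, and the 6 recurrent sites of highest fraction. Other genes were named after their values were seen, where a count was small or a value stood apart. Alternatives were another pseudocount, filter, scaling, fit with all 3 groups, replicate block, strand, minimum fraction or window, and leaving out each library. Restriction to Cs after A or U and to isoform lengths was chosen after seeing the data. The values of 1 gene are not reported here.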

Additional observations from a re-analysis of the deposited data

How the results depend on the processing

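The count of 0 member isoforms between RBFOX2-INSCRIBE and enzyme-only was 0 under each alternative except leaving out enzyme-only replicate 3, and spanned 0 to 3 when single libraries were left out. Their median log2 difference of -0.08 turned to 0.71 at a fraction of at least 0.02 (4 isoforms), 0.26 without RBFOX2-INSCRIBE replicate 2 and 0.10 without enzyme-only replicate 2, and ran from -0.38 to 0.26 over the libraries left out and was -0.89 after scaling. Over all isoforms the 3 calls became 0 with a pseudocount of 0.1, with isoforms averaging 1 edited C kept, after scaling or at a fraction of at least 0.02, 66 with a pseudocount of 1, and 74 with the block. The ratio of member sites of 1.06 was 0.585 per all sites of a library and 0.827 in isoforms under 2000 nt, and 0.835 to 1.28 without single libraries.

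Against buffer-only, the 17 calls in RBFOX2-INSCRIBE became 10 with all 3 groups fitted, 1 of 3 tested at a fraction of at least 0.02, 0 after scaling, and 0 to 13 without single libraries. The 2 calls in enzyme-only became 1 with a pseudocount of 1, 1 with the replicate block, and 0 when isoforms averaging 1 edited C were kept, after scaling, at a fraction of at least 0.02 and without any single library (0 to 0). Where 1 library of a group was left, it was assumed to vary like the other group. The causes were not tested. The motif difference of 0.320 stayed above 0, from 0.104 to 0.537 without single libraries, 0.239 within 100 nt, 0.919 within 25 nt and 1.56 at a fraction of at least 0.02.

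The block used the labels' replicate field (1 and 2), which differs from the title numbers of the enzyme-only libraries, and no shared well or day is known. The replicate block left 15 calls in RBFOX2-INSCRIBE against buffer-only and 0 against enzyme-only, and deviations of same-numbered libraries correlated at 0.0367 across isoforms there (0.105 and -0.0328 in the other comparisons). Of 161 alternative values of 15 results on single isoforms, 107 kept their side of the threshold and direction, 54 lost the call and 0 changed direction. The results for NDUFB8, UQCRB and NDUFV2 between RBFOX2-INSCRIBE and enzyme-only are among them and had no call to lose. Alternatives in which an isoform was not tested are not among the 161. Depth is unknown, so a site listed in no control may have been too thinly read there.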
